A study of Mus musculus with 24 samples.

Results

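The comparison described here asks which genes changed from 14 to 21 days in a different way after distal and after proximal amputation of the mouse digit tip. For each gene the change after proximal amputation was subtracted from the change after distal amputation, on the scale of log2(deposited value + 1). The result is called the level difference below: it is positive where the distal change was the more positive one. It uses 16 of the series' 24 libraries, chosen by their labelled day, and all 15055 genes of the table were tested. The 4 groups hold 4 libraries each: distal 14 day, distal 21 day, proximal 14 day and proximal 21 day. Every library came from C57BL/6 mice, an inbred strain, aged 10 to 12 weeks, and from a whole digit tip of the hind limb, in which epidermis, dermis, bone, cartilage and marrow are mixed, and neither a genetic change nor an unamputated control is part of the contrast. Days are counted after amputation. Nothing in the labels tells whether replicates were different animals; the p-values therefore reflect the spread among libraries, which may be partly technical.

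In the adult mouse, a digit amputated through the distal part of its last bone is known to regrow that bone, the nail and the surrounding skin, while a more proximal amputation heals without regrowth. Regrowth passes through removal of bone at the stump, closure of the epidermis, a blastema of dividing connective tissue cells, and new bone that forms directly from those cells. A gene can therefore differ between the levels in its level on any day, or in how that level changes with time, and only the latter is the subject here.

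The tissue named in the labels was represented by its markers. Over the 16 libraries the mean deposited value was 34339 for the epidermal keratin gene Krt5, 40487 for the nail keratin gene Krt31, 215123 for Col1a1 of bone and dermis, 336 for the osteoblast transcription factor gene Sp7 and 4447 for the osteoclast protease gene Ctsk. The cartilage collagen gene Col2a1 was low, with a mean of 95.5, and the haemoglobin gene Hbb-bs ranged from 54 to 10187 between libraries. The marrow markers Elane and Cd79a were not analysed here. Marrow was covered only in part: 8 of 18 listed neutrophil, 3 of 19 B and plasma cell and 6 of 12 erythroid genes were measured. Replicates of a group correlated at 0.978 to 0.988 on the log2 scale. The values appear to have been normalised before deposit, so sequencing depth is unknown, and the transcript Gm26917 alone took 3.94% to 7.69% of the table total.

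A level difference was called for 286 of 15055 genes (1.90%) at a Benjamini-Hochberg adjusted p under 0.05. The change was more positive after distal amputation for 151 of them (1.00% of all genes) and more negative for 135 (0.897%), and 80 exceeded 2-fold, 45 in the positive and 35 in the negative direction. The split between directions depended on the scaling: it was 266 more positive to 103 more negative with median-ratio factors, which bring the median level difference of all genes from -0.05 to -0.00066, and 91 to 650 with values scaled to the table total, which move it to -0.20. At an unadjusted p under 0.05 the count was 2924 genes (19.4%), and the smallest adjusted p was 0.00443. Far more genes changed with time within a level. After distal amputation 5234 genes (34.8%) were called between 14 and 21 days, 1996 higher (13.3%) and 3238 lower (21.5%). The corresponding counts after proximal amputation were 4328 (28.7%), 1876 higher (12.5%) and 2452 lower (16.3%). Both levels rose together for 836 genes and fell together for 1683. In bulk tissue, fewer cells of a type and less RNA per cell cannot be told apart in any of these changes.

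**Figure D1:**
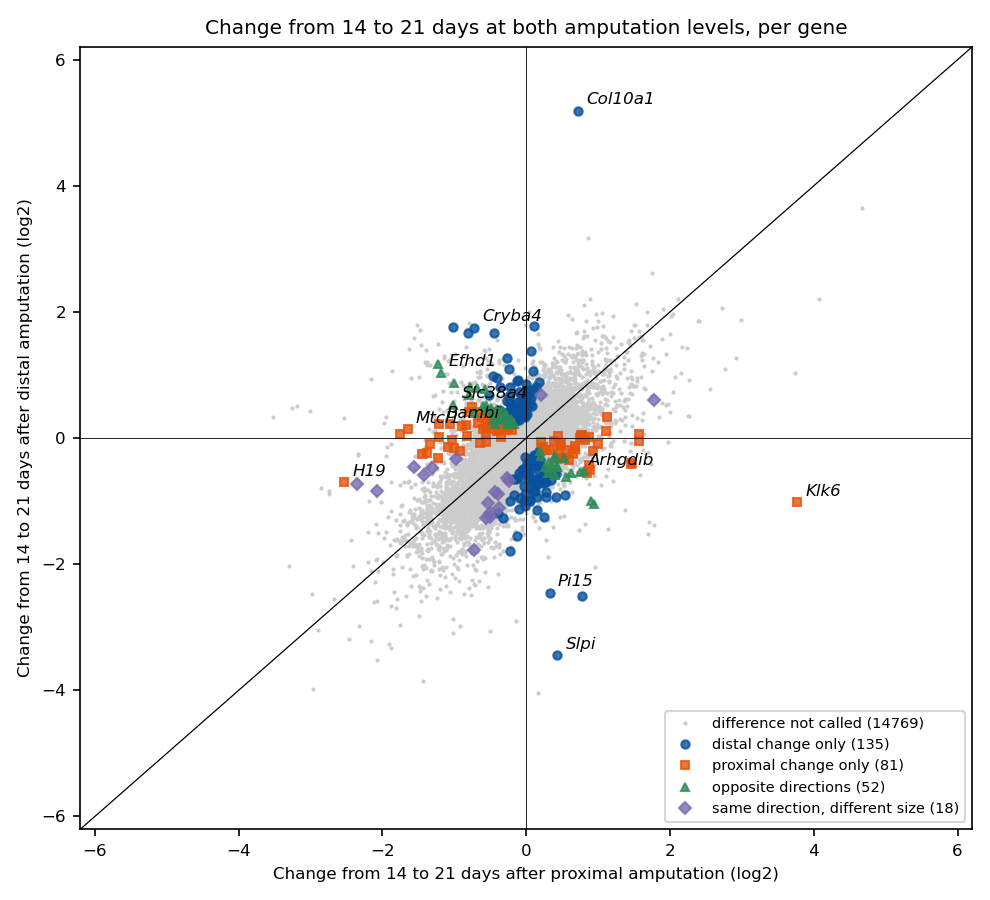
Change from 14 to 21 days after proximal amputation (horizontal axis) against that after distal amputation (vertical axis), in log2 units, 1 point per gene; the diagonal marks equal change. Coloured symbols are the 286 genes with a called level difference: 135 changed after distal amputation only, 81 after proximal amputation only, 52 in opposite directions and 18 in the same direction by different amounts.

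The called genes fell into 7 classes by which of the 2 changes was itself called. After distal amputation only, 63 genes rose and 72 fell. After proximal amputation only, 33 rose and 48 fell. A further 33 genes rose distally and fell proximally, 19 fell distally and rose proximally, and 18 changed in the same direction by different amounts. A change that misses the threshold is not shown to be 0. Of the 135 genes with a distal change only, 106 had a 95% interval of the proximal change that lay within 1.5-fold in either direction. Of the 81 with a proximal change only, 56 had such an interval for the distal change. The 14 and 21 day values did not overlap in the changed level for 57 of the 63 distal rises, 70 of the 72 distal falls, 29 of the 33 proximal rises and 45 of the 48 proximal falls. Over all genes, 31.0% had no overlap after distal and 25.4% after proximal amputation, and since these same values enter the calls nothing is read from the comparison.

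Most of the 286 genes were not called between the levels at 14 days and were at 21 days. Between the levels on a single day, 3.06% of all genes were called higher and 2.32% lower after distal amputation at 14 days, and 8.22% and 9.43% at 21 days. Among the 286, 116 were higher and 104 lower after distal amputation at 21 days without being called at 14 days. Only at 14 days were 17 called higher and 18 lower, while 9 were higher on both days and 12 were called on neither. The order of the levels switched for 10 genes. Cacna1e, Dok3, Gm43566, Mad2l1, Pogz and Tmem97 were higher after distal amputation at 14 days and lower at 21 days, and Lrrfip1, Sipa1l1, Snrk and Wdr47 were lower first and higher later. All but Mad2l1 are named here because they make up this count. The level difference equals the gap between the levels at 21 days minus that at 14 days. The counts by day therefore come from the same values as the calls, and nothing is read from them.

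How many genes were called depended on single libraries. The count was 105 without distal 14 day replicate 2, 122 without proximal 14 day replicate 3, 123 without distal 21 day replicate 1 and 128 without proximal 21 day replicate 3. It was 155 without distal 21 day replicate 4, 163 without distal 21 day replicate 2, 170 without proximal 21 day replicate 2, 175 without distal 14 day replicate 3 and 179 without proximal 21 day replicate 4. Without proximal 21 day replicate 1 it rose to 460. Leaving out any of the other 6 libraries gave 205 to 342. Of the 286 genes, 85 were called in all 16 of these fits: 17 distal rises, 18 distal falls, 3 proximal rises, 14 proximal falls, 18 distal rises with a proximal fall, 10 distal falls with a proximal rise and 5 of the same direction. For genes described below, the number of these 16 fits that kept the call is given. Estimating the spread from the 16 libraries alone, without those of day 12, gave 164 genes. Among genes described below it ended the calls of Efhd1, Spink7, Gpr85, Klk6, Pi15, Tlcd2, Slc16a14, Sec14l2, H19, Creg2, Cenpm, Igfbp5, Eif2b3, Foxm1, Lcn2 and Pdk1.

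**Figure D2:**
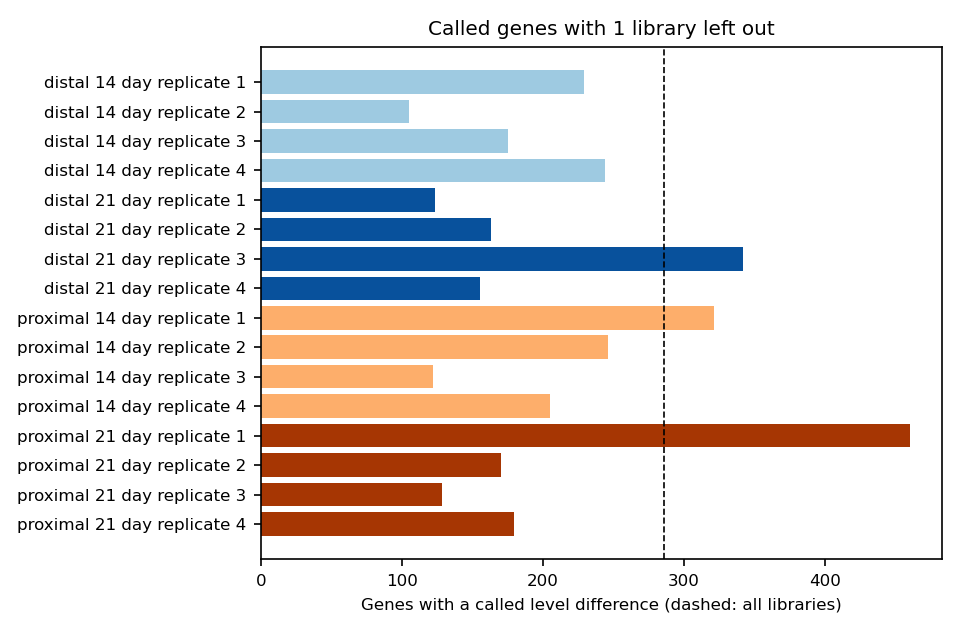
Number of genes with a called level difference (horizontal axis) after leaving out each of the 16 libraries in turn (rows, coloured by group); the dashed line is the count of 286 with all libraries. The bars run from 105 without distal 14 day replicate 2 to 460 without proximal 21 day replicate 1.

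Genes that rose after distal and fell after proximal amputation included transporters, receptors and a transcription factor. Slc38a4, which encodes a sodium-coupled amino acid transporter (chromosome 15, 96994816 to 97055956), stood at 1414, 1011, 1336 and 1495 in the distal 14 day libraries and at 1813, 1942, 1662 and 2111 in the distal 21 day libraries. After proximal amputation its values were 1180, 1443, 1635 and 1139 at 14 days and 686, 564, 614 and 804 at 21 days. The groups started from overlapping values and moved apart, with no overlap in either level. The distal change was 0.53 ± 0.16 (SE) and the proximal change -1.01 ± 0.16 in log2 units, a level difference of 1.54 ± 0.23 (adjusted p = 0.00578), kept in 16 of 16 fits.

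The same pattern was seen for P2ry2, a receptor for extracellular ATP and UTP. Its values were 1168, 1093, 673 and 1092, then 1519, 1601, 1315 and 2608 after distal amputation, and 1068, 1018, 963 and 1504, then 955, 561, 589 and 758 after proximal amputation. The changes differed by 1.47 ± 0.31 (adjusted p = 0.0219). Arid3a, a DNA-binding protein gene of the ARID family, rose by 0.51 ± 0.14 and fell by 0.61 ± 0.14 (level difference 1.12 ± 0.20, adjusted p = 0.0107). The membrane protein gene Tspan7 differed by 0.86 ± 0.15 (adjusted p = 0.00715), and Commd6, of the COMM domain family, by 0.76 ± 0.15 (adjusted p = 0.0139). Ndrg1, a gene known to be induced by low oxygen, stood at 2004 to 2057 in the distal 14 day and 2376 to 2937 in the distal 21 day libraries, against 2239 to 2708 and 1662 to 2101 after proximal amputation. The changes differed by 0.77 ± 0.14 (adjusted p = 0.0113). These 5 genes kept their call in 16 of 16 fits. Efhd1, which encodes a mitochondrial calcium-binding protein, and Gpr85, an orphan receptor gene, had larger estimates of 2.23 ± 0.55 and 1.87 ± 0.47 (adjusted p = 0.042 and 0.0421), kept in 6 and 5 of 16 fits. The highest adjusted p over those fits was 0.0753 for Efhd1 and 0.0909 for Gpr85.

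In the reverse direction, 19 genes fell after distal and rose after proximal amputation, 7 of them with no overlap in either level. Arhgdib, a gene expressed mainly in blood cells (chromosome 6, 136923655 to 136941899), had the smallest adjusted p of all genes. It stood at 193, 201, 163 and 190 in the distal 14 day libraries and at 122, 157, 116 and 123 at 21 days. After proximal amputation it stood at 208, 144, 224 and 209, then at 320, 338, 323 and 324. The proximal 21 day libraries were the highest of the 16 and nearly equal to each other. The distal change was -0.53 ± 0.12, the proximal change 0.75 ± 0.12 and the level difference -1.28 ± 0.18 (adjusted p = 0.00443).

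Of the other genes named by rule for this pattern, 3 belong to cell division. Mad2l1, a protein of the checkpoint that holds chromosomes until they are attached to the spindle, stood at 275 to 288 in the distal 14 day and 164 to 203 in the distal 21 day libraries. Its proximal values were 209 to 220 at 14 days and 233 to 332 at 21 days, so the order of the levels was reversed between the days. Its level difference was -0.99 ± 0.15 (adjusted p = 0.00578). The centriole assembly gene Stil differed by -0.84 ± 0.17 (adjusted p = 0.0144) and the centromere protein gene Cenpm by -1.16 ± 0.26 (adjusted p = 0.0265). The Cenpm call ended without distal 14 day replicate 2 (adjusted p = 0.0598) or proximal 21 day replicate 3 (0.0504). Litaf, which encodes a protein of late endosomes, differed by -0.48 ± 0.08 (adjusted p = 0.00798). Ubl4a, whose product takes part in membrane insertion of proteins, differed by -0.39 ± 0.09 (adjusted p = 0.0272). Arhgdib, Mad2l1, Stil and Litaf kept their calls in 16 of 16 fits. Ubl4a did so in 12, and its call ended without distal 14 day replicate 2 (adjusted p = 0.0598), distal 21 day replicate 2 (0.0526), proximal 21 day replicate 2 (0.0521) or proximal 21 day replicate 3 (0.0503).

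**Figure D3:**
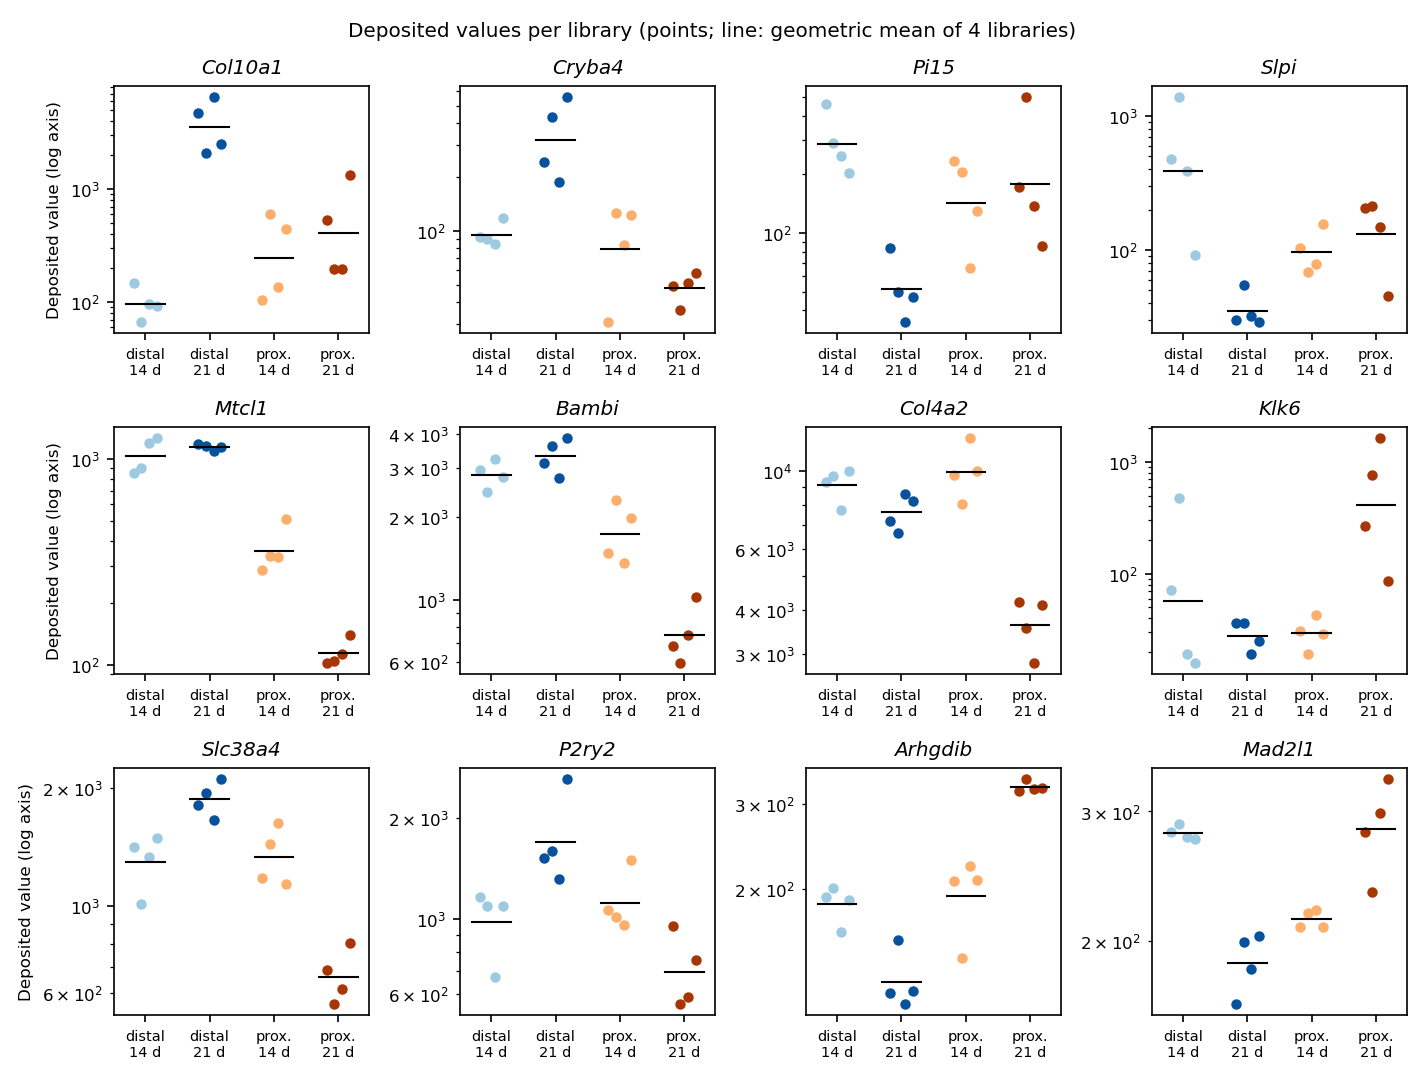
Deposited values of 12 genes in each library (points, logarithmic vertical axis, different in each panel), by amputation level and day; the line is the geometric mean of the 4 libraries. Col10a1, Cryba4, Pi15 and Slpi moved after distal amputation, Mtcl1, Bambi, Col4a2 and Klk6 after proximal amputation, and the last row moved in opposite directions at the 2 levels.

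Most proliferation genes fell after distal amputation, and none was called lower after proximal amputation. Of the 30 listed genes, all measured, 18 fell and 0 rose after distal amputation, while 0 fell and 1 rose (Nusap1, a spindle protein gene) after proximal amputation. Over all genes, 21.5% fell and 13.3% rose after distal amputation, and 16.3% fell and 12.5% rose after proximal amputation. The level difference was negative for 30 of 30, with a median of -0.67 against -0.05 over all genes. It was called for 6 of the 30 (20%, against 0.897% of all genes in that direction). An unadjusted p under 0.05 was reached by 28, against 19.4% of all genes in either direction. The median change was -0.45 after distal and 0.21 after proximal amputation. At 14 days no member was called between the levels, and at 21 days 22 of 30 were lower and 0 higher after distal amputation. In the whole table, 9.43% of genes were lower and 8.22% higher at 21 days. All 30 estimates stayed negative under each scaling and each of the 16 fits without 1 library. The number called was 23 when values were scaled to the table total. That scaling also raised the count of more negative genes over the whole table. The number was 3 without distal 14 day replicate 2, distal 21 day replicate 1, proximal 14 day replicate 3, proximal 21 day replicate 3 or proximal 21 day replicate 4.

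The 6 called genes act at successive steps of division. Cdk1, the kinase that drives entry into mitosis (chromosome 10, 69335146 to 69352912), stood at 610, 584, 552 and 482 in the distal 14 day libraries and at 338, 344, 340 and 439 at 21 days. After proximal amputation it stood at 492, 514, 434 and 428, then 594, 514, 530 and 554. The distal groups did not overlap and the proximal ones touched at 514. This gave a level difference of -0.84 ± 0.18 (adjusted p = 0.0201). Ccna2, the gene of the S and G2 phase cyclin A2, stood at 855 to 999 and then 515 to 649 after distal amputation, and at 482 to 806 and then 720 to 929 after proximal amputation (level difference -1.01 ± 0.21, adjusted p = 0.0174). The kinesin gene Kif20a, needed for cytokinesis, differed by -0.94 ± 0.18 (adjusted p = 0.0139). Ccnb2, a mitotic cyclin gene, and Bub1, a spindle checkpoint kinase gene, both differed by -0.89, with errors of 0.21 and 0.20 (adjusted p = 0.0335 and 0.0288). Foxm1, a transcription factor of G2 and mitosis genes, differed by -0.76 ± 0.19 (adjusted p = 0.0444). Cdk1, Ccna2 and Kif20a kept the call in 16 of 16 fits, Bub1 in 10, Ccnb2 in 8 and Foxm1 in 4. Mki67, the usual marker of cycling cells, was not called, at -0.52 ± 0.19 (adjusted p = 0.133).

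**Figure D4:**
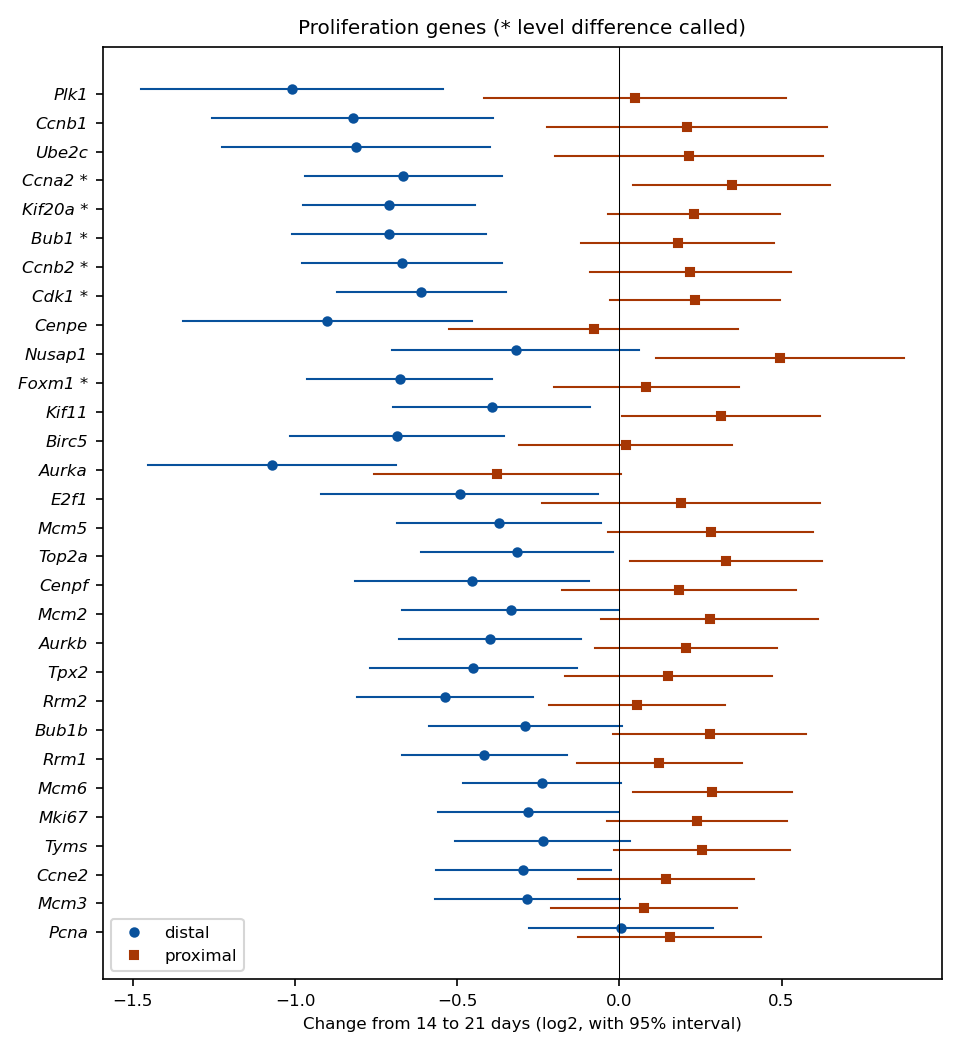
Change from 14 to 21 days in log2 units (horizontal axis, with 95% intervals) of the 30 proliferation genes after distal (circles) and proximal (squares) amputation, ordered by level difference; an asterisk marks the 6 called genes. The distal change lies to the left of the proximal change for every gene, with the widest gaps at the top and the narrowest for Pcna.

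A set of 22 called genes with known roles in replication, the spindle or cytokinesis lies outside that list. It includes Mad2l1, Stil and Cenpm, which were named by rule and described above. The set was put together after the values were seen, so its common direction is only a description. All 22 had a negative level difference. Of these, 13 fell after distal amputation only, 7 fell distally and rose proximally, and 2 rose after proximal amputation only. The replication origin gene Orc1 differed by -1.04 ± 0.22, the kinetochore gene Nuf2 by -0.96 ± 0.24, the cytokinesis gene Racgap1 by -0.72 ± 0.13 and the replicative helicase gene Mcm4 by -0.68 ± 0.14. Orc1, Racgap1 and Mcm4 kept their calls in 16 of 16 fits and Nuf2 in 5. The cell cycle inhibitor gene Cdkn2b, also picked out after its values were seen, stood at 301 to 389 in the distal 14 day and 525 to 644 in the distal 21 day libraries. It was at 344 to 446 and 323 to 441 after proximal amputation. The changes differed by 0.71 ± 0.18 (adjusted p = 0.0429), kept in 4 of 16 fits.

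Many genes of G2 and mitosis share 2 promoter elements, the CCAAT box, bound by the factor NF-Y, and the cell cycle genes homology region, TTTGAA or TTCGAA, bound by the DREAM complex. The promoters of 3 called proliferation genes are shown because they moved together and were matched to a promoter. The other called genes, Ccna2, Kif20a and Foxm1, were not matched. The 3 sequences are RefSeq's for build GRCm38.p6. They run from 250 bases before to 50 after the start of the gene, 5′ to 3′ along the gene. All 3 lie on the minus strand. Capitals mark these elements on either strand, and ATTGG is the CCAAT box in reverse. Cdk1 lies at chr10:69352863-69353162, Ccnb2 at chr9:70421505-70421804 and Bub1 at chr2:127831810-127832109.
Cdk1: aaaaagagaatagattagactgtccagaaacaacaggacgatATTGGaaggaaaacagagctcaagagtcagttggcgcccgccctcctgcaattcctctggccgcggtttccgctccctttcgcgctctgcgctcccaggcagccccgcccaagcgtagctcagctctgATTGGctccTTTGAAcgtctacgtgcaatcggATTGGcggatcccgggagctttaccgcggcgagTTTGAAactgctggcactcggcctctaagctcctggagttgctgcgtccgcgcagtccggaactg
Ccnb2: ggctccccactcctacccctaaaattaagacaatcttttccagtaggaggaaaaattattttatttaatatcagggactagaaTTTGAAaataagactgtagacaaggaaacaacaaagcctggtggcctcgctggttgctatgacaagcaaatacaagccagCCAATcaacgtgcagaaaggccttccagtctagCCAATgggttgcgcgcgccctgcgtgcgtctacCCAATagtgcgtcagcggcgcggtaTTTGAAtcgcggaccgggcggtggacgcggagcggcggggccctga
Bub1: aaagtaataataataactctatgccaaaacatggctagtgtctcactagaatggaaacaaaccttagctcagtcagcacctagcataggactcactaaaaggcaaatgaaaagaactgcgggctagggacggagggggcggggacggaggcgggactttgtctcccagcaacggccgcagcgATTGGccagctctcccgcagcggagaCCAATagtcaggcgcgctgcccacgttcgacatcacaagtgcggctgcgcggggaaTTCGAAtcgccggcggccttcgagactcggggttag

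The Cdk1 and Ccnb2 windows each hold 3 CCAAT boxes and 2 TTTGAA elements, and the Bub1 window holds 2 CCAAT boxes and 1 TTCGAA element. Of the 30 proliferation genes, 24 were matched to a promoter, of which 20 held CCAAT, 12 held TTTGAA or TTCGAA, and 12 held both. Over 27025 mouse promoters of the same length, 37.9% held CCAAT, 18.1% TTTGAA, 1.57% TTCGAA, 19.4% either of the last 2, and 7.70% CCAAT together with one of them. The motifs were searched separately on both strands, so a base shared by 2 matches counts for both. A match describes the letters in the window and not binding.

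Rises after distal amputation only were led by Col10a1, the gene of type X collagen, which marks hypertrophic cartilage (chromosome 10, 34389981 to 34397085). It stood at 148, 67, 96 and 93 in the distal 14 day libraries and at 4762, 2091, 6507 and 2526 at 21 days, a 36.5-fold rise. Its proximal values were 105, 606, 135 and 440 at 14 days and 535, 196, 196 and 1340 at 21 days. All 4 distal 21 day libraries lay above every other library, and the proximal groups overlapped. The distal change was 5.19 ± 0.65 in log2 units. The proximal change of 0.71 ± 0.65 was not called (adjusted p = 0.441), but its 95% interval of -0.64 to 2.07 does not exclude a rise. The level difference was 4.48 ± 0.92 (adjusted p = 0.0175), kept in 16 of 16 fits with estimates of 4.05 to 5.05. Col10a1 was the only called member of the cartilage list (1 of 17 measured). Of the other 16 members, 6 fell and 0 rose after distal amputation, against 21.5% and 13.3% of all genes. The aggrecan gene Acan (-1.62 ± 0.43) and the fibrillar collagen gene Col11a1 (-2.02) were among those that fell. After proximal amputation, 8 of the 17 measured members fell and 1 rose, against 16.3% and 12.5% of all genes. The proximal change of Acan was -2.43 ± 0.43. Col2a1 stood at 16 to 69 in the distal 21 day libraries and 38 to 218 in the distal 14 day libraries, and its level difference of -0.34 ± 1.04 was not called (adjusted p = 0.894).

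Cryba4, a crystallin gene best known from the lens, stood at 84 to 118 in the distal 14 day and 186 to 557 in the distal 21 day libraries. It was at 31 to 125 and 36 to 58 after proximal amputation. Its level difference was 2.47 ± 0.51 (adjusted p = 0.0174), kept in 16 of 16 fits. Spink7, an epithelial serine protease inhibitor gene, stood at 36 to 105 and then 116 to 256 after distal amputation, and at 58 to 120 and then 49 to 141 after proximal amputation. The predicted gene Gm37797 stood at 7901 to 24824 and then 26635 to 81764 after distal amputation, and at 6930 to 8300 and then 2708 to 6518 after proximal amputation. Neither its distal nor its proximal groups overlapped, and the proximal change of -0.81 ± 0.44 was not called (adjusted p = 0.169). Level differences were 2.11 ± 0.52 for Spink7 and 2.49 ± 0.62 for Gm37797 (both adjusted p = 0.042), kept in 5 and 6 of 16 fits, with the adjusted p reaching 0.0881 and 0.0824. Pdk1, a kinase that limits the entry of pyruvate into mitochondria, rose after distal amputation by 0.59 ± 0.14, with a level difference of 0.82 ± 0.20 (adjusted p = 0.0384), kept in 5 of 16 fits. With Ndrg1 it made up the 2 called members of the 19 hypoxia and glycolysis genes (1.00% of all genes were called in that direction). The list had a median level difference of 0.29 and 16 positive estimates.

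Falls after distal amputation only included secreted inhibitors. Slpi, the secretory leukocyte protease inhibitor (chromosome 2, 164354070 to 164356507), stood at 479, 1380, 388 and 91 in the distal 14 day libraries and at 30, 55, 32 and 29 at 21 days, a 10.8-fold fall. Its proximal values were 104, 68, 79 and 156, then 204, 212, 148 and 45. The distal groups did not overlap, although the 14 day values spread widely, and the proximal groups did. This gave a level difference of -3.87 ± 0.85 (adjusted p = 0.0257). The call ended without distal 14 day replicate 2 (-3.26, adjusted p = 0.051) or proximal 14 day replicate 3 (-3.77, adjusted p = 0.0513). Pi15, a secreted protein gene of the CAP family, stood at 458, 290, 247 and 202, then 84, 50, 35 and 47 after distal amputation, and at 234, 205, 66 and 129, then 172, 497, 138 and 86 after proximal amputation. The distal groups were clearly apart and the proximal groups overlapped. Its level difference was -2.78 ± 0.59 (adjusted p = 0.0201), kept in 16 of 16 fits. Gsap, which encodes a protein that stimulates gamma-secretase, differed by -1.56 ± 0.36, and Emb, the membrane glycoprotein embigin, by -1.50 ± 0.35 (both adjusted p = 0.031), each kept in 9 of 16 fits.

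Most measured genes of the neutrophil list fell after distal amputation, as did Slpi, whose product guards tissue against neutrophil elastase. Of the 18 listed genes, 8 were measured. Of 8 measured neutrophil genes, 5 fell and 1 rose after distal amputation and none was called after proximal amputation. Over all genes, 21.5% fell and 13.3% rose after distal amputation, and 28.7% were called after proximal amputation. Only the level difference of Lcn2, the iron-binding lipocalin 2, was called, at -3.28 ± 0.78 (adjusted p = 0.0339), kept in 9 of 16 fits and lost with a pseudocount of 8 in place of 1. The list's median level difference was -2.14 and 7 of 8 estimates were negative. Its summed level per 1e6 of the table total ran from 339 to 1420 in the distal 14 day, 50.8 to 153 in the distal 21 day, 191 to 390 in the proximal 14 day and 116 to 539 in the proximal 21 day libraries. S100a8, a calcium-binding protein of neutrophils and stressed keratinocytes, stood at 688, 4546, 1044 and 90, then 213, 239, 90 and 56 after distal amputation. After proximal amputation it stood at 476, 577, 198 and 701, then 247, 2851, 2830 and 145. With such spread its level difference of -3.26 ± 1.35 was not called (adjusted p = 0.182). The lowest estimate of the neutrophil list, -4.21, was also the lowest of the wound epidermis list. Of 10 genes measured in the latter, 2 fell and 0 rose after distal amputation. The parts of neutrophil content and of the epidermis in the changes of Slpi were not tested.

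Falls after proximal amputation only included the collagen gene Col4a2, the BMP inhibitor genes Bambi and Smad6, and the noncoding transcript H19. Mtcl1, which encodes a protein that cross-links microtubules (chromosome 17, 66336980 to 66449806), stood at 850, 905, 1185 and 1256, then 1183, 1149, 1093 and 1134 after distal amputation. Its proximal values were 288, 337, 332 and 508, then 102, 104, 112 and 139. The proximal libraries lay below every distal library on both days, and fell further by 3.14-fold. The level difference was 1.79 ± 0.30 (adjusted p = 0.00715), kept in 16 of 16 fits. Creg2, a secreted glycoprotein gene, had an estimate of 1.81 ± 0.48 (adjusted p = 0.0497), kept in 2 of 16 fits.

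Bambi and Smad6, both inhibitors of BMP signalling, fell after proximal amputation and were not called after distal amputation. Bambi, a receptor-like protein without a kinase domain that dampens BMP and TGF-beta signals, stood at 2959, 2458, 3248 and 2786, then 3130, 3615, 2766 and 3857 after distal amputation. The proximal libraries held 1479, 2309, 1362 and 1986, then 686, 594, 750 and 1026. The proximal groups did not overlap and the distal groups did. The level difference was 1.44 ± 0.25 (adjusted p = 0.00748). Smad6, an intracellular inhibitor of the same pathway, differed by 0.72 ± 0.14 (adjusted p = 0.0166), with a proximal change of -0.92 ± 0.10. Both kept their calls in 16 of 16 fits, and the Smad6 call ended when values were scaled to the table total. These were the 2 called members of 25 measured BMP pathway genes (8%, against 1.00% of all genes in that direction), a list with a median of -0.04. The related inhibitor gene Smad7 had 0.51 ± 0.16 (adjusted p = 0.0908). Of other target genes, Id1 had 0.56 ± 0.25 (adjusted p = 0.217) and Id2 0.47 ± 0.16 (adjusted p = 0.11). Among ligands, Bmp4 had -0.04 ± 0.18 (adjusted p = 0.924), and the secreted antagonist genes Nog and Grem1 had -0.10 ± 0.26 and -0.27 ± 0.62, neither called.

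Of 15 measured genes of the insulin-like growth factor axis, 3 were called, all more positive after distal amputation (20%, against 1.00%). This count was not stable. It was 0 without distal 14 day replicate 2 or 3, distal 21 day replicate 2 or 3, proximal 14 day replicate 3, or proximal 21 day replicate 2 or 3. With table totals, the replicate block or only the 16 libraries it was 1. H19, a noncoding transcript of the imprinted region that also holds Igf2 (chromosome 7, 142575530 to 142578146), stood at 470, 275, 400 and 300, then 167, 318, 224 and 186 after distal amputation. After proximal amputation it stood at 877, 1262, 1523 and 717, then 104, 168, 189 and 316. At 14 days every proximal library lay above every distal one, and at 21 days the levels overlapped. The proximal change was -2.54 ± 0.34, the distal change -0.70 ± 0.34 was not called (adjusted p = 0.115), and the level difference was 1.84 ± 0.48 (adjusted p = 0.0491), kept in 4 of 16 fits. Igf2 itself had 0.41 ± 0.38 (adjusted p = 0.592). The binding protein genes Igfbp5 and Igfbp7 fell in both levels and further after proximal amputation, with level differences of 0.84 ± 0.21 and 0.66 ± 0.16 (adjusted p = 0.0381 and 0.0364), kept in 5 and 7 of 16 fits. Both calls ended when values were scaled to the table total. The ligand gene Igf1 had -0.09 ± 0.37 and the receptor gene Igf1r -0.01 ± 0.10, neither called.

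Among 24 limb patterning and blastema genes, 17 fell after distal and 18 after proximal amputation, against 21.5% and 16.3% of all genes. Only Dlx6 had a called level difference. Dlx6, a homeobox gene of limb and jaw development, stood at 232 to 279, then 193 to 267 after distal amputation, and at 179 to 205, then 67 to 99 after proximal amputation. The changes differed by 0.96 ± 0.21 (adjusted p = 0.022), kept in 16 of 16 fits. Msx2, a homeobox gene that responds to BMP, stood at 694 to 1371, then 661 to 1356 after distal amputation, and at 314 to 748, then 156 to 253 after proximal amputation. Its level difference of 1.39 ± 0.38 was not called (adjusted p = 0.0592), although it was called in 3 of 16 fits (lowest adjusted p 0.0344). Msx1 fell in both levels, by 1.01 ± 0.23 and 1.47 ± 0.23, with a level difference of 0.45 ± 0.33 (adjusted p = 0.478). En1 had 0.49 ± 0.28 (adjusted p = 0.347) and the Wnt pathway transcription factor gene Lef1 1.38 ± 0.62 (adjusted p = 0.218). Scx, the transcription factor gene of tendon progenitors, fell in both levels: from 342 to 408 down to 235 to 267 after distal amputation, and from 298 to 321 down to 103 to 137 after proximal amputation. Its level difference was 0.84 ± 0.14 (adjusted p = 0.00715), kept in 16 of 16 fits, and it was the only called gene of 16 in the tendon list. Tnmd, the tenomodulin gene of mature tendon, had 0.18 ± 0.52 (adjusted p = 0.885).

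Col4a1 and Col4a2, the main collagen chains of basement membranes, were picked out after their values were seen. Col4a2 stood at 9285, 9678, 7740 and 10016, then 7209, 6645, 8611 and 8204 after distal amputation. The proximal libraries held 9771, 8039, 12428 and 10018, then 4219, 3547, 2823 and 4125. The proximal 21 day libraries lay below all others. Level differences were 1.19 ± 0.20 for Col4a2 (adjusted p = 0.00578) and 1.11 ± 0.20 for Col4a1 (adjusted p = 0.0111), both kept in 16 of 16 fits. Col4a1 fell in both levels, by 0.45 ± 0.14 and 1.56 ± 0.14. The other 4 chain genes, Col4a3, Col4a4, Col4a5 and Col4a6, were not called (-0.50 to 0.35). Both called genes are read in opposite directions. In the promoter records used, the start sites lie 21 bases apart, at 11312826 for Col4a1 and 11312805 for Col4a2. The gene span of Col4a1 runs further, to 11312889. On either coordinate the 2 genes overlap at their starts. The stretch common to both promoter windows, 78 bases on the plus strand at chr8:11312777-11312854 (GRCm38.p6, RefSeq), is shown because the pair moved together; no part of it is marked.
Col4a1-Col4a2: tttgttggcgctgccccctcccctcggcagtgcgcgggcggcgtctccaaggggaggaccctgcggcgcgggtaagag

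Rises after proximal amputation only were the class least often kept without 1 library, in 3 of 33 genes. Klk6, a secreted serine protease gene of the kallikrein family (chromosome 7, 43824438 to 43832027), had the largest level difference of all called genes. It stood at 72, 481, 19 and 16, then 36, 36, 19 and 25 after distal amputation, and at 31, 19, 43 and 29, then 269, 766, 1630 and 86 after proximal amputation. The proximal 21 day values lay above all proximal 14 day values but varied widely among themselves. The proximal change was 3.77 ± 0.85 and the level difference -4.79 ± 1.20 (adjusted p = 0.042). It was called in 4 of 16 fits. Over all 16 the estimates ran from -5.54 to -3.78 and the adjusted p reached 0.0811. Tlcd2, a membrane protein gene, stood at 65 to 76 and then 93, 295, 335 and 190 after proximal amputation, and at 69 to 92 and then 51 to 99 after distal amputation (level difference -1.61 ± 0.41, adjusted p = 0.0426, kept in 2 of 16 fits). Slc16a14, of the monocarboxylate transporter family, differed by -1.51 ± 0.39 (adjusted p = 0.0491). Sec14l2, a lipid-binding protein gene, stood at 136 to 216 and then 273 to 452 after proximal amputation, and at 110 to 144 and then 109 to 165 after distal amputation (adjusted p of the level difference 0.0441). Each kept its call in 4 of 16 fits.

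Of 22 enzymes and regulators of epidermal lipids and sterols, 13 rose after distal and 13 after proximal amputation, against 13.3% and 12.5% of all genes. The level difference was called for 1 of the 22, more negative after distal amputation, against 0.897% of all genes in that direction. Estimates were positive for 11 and negative for 11 of the 22, with a median of 0.01 and a range of -1.77 to 1.47. Soat1, which esterifies cholesterol, had a level difference of -1.61 ± 0.43 that was not called (adjusted p = 0.0535). The fatty acid desaturase gene Scd1 had -1.77 ± 0.64 (adjusted p = 0.132), with proximal 21 day values of 3385, 22495, 26982 and 15726.

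Several gene groups changed strongly with time but gave no called level difference by limma. Over all genes, 21.5% fell and 13.3% rose after distal amputation, and 16.3% fell and 12.5% rose after proximal amputation. The level difference had an unadjusted p under 0.05 for 19.4% of all genes. Osteoblast and bone matrix genes fell in both levels, 17 of 20 after distal and 16 of 20 after proximal amputation, with medians of -1.98 and -1.69. None of the 20 differed between levels at the adjusted threshold and 2 did at an unadjusted p under 0.05. Bglap, the osteocalcin gene, had a level difference of -1.36 ± 1.20 and Dmp1, of osteocytes and late osteoblasts, -0.15 ± 1.00 (adjusted p = 0.568 and 0.954). Of 25 fibrosis and myofibroblast genes, 19 fell after distal and 22 after proximal amputation (0 differences called, 5 unadjusted), and the periostin gene Postn fell in both by 1.51 ± 0.23 and 1.23 ± 0.23. Endothelial genes fell for 13 and 12 of 16 (0 called, 0 unadjusted). Immediate early and stress genes rose for 16 and 14 of 21 (0 called, 1 unadjusted). The macrophage gene Lyz2 fell in both levels, with a level difference of 0.13 ± 0.29 (adjusted p = 0.849), and the basal keratin gene Krt14 was called in neither (-0.06 ± 0.31, adjusted p = 0.935).

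In other groups no member's level difference was called. Osteoclast genes fell for 12 of 14 after distal and 4 of 14 after proximal amputation (medians -1.66 and -0.82), with 0 differences called and 3 at an unadjusted p under 0.05. Acp5, the tartrate-resistant phosphatase of osteoclasts, fell by 1.66 ± 0.48 after distal amputation and had -0.54 ± 0.48 after proximal amputation, a difference of -1.12 ± 0.68 (adjusted p = 0.381). Interferon response genes fell for 10 of 12 after distal and 0 of 12 after proximal amputation, with 0 differences called, 4 unadjusted and a median of -0.74. Their summed level per 1e6 of the table total ran from 173 to 602 in the distal 14 day libraries, with a median of 215. At 21 days it ran from 128 to 168 after distal amputation. The proximal libraries held 270 to 310 at 14 days and 286 to 336 at 21 days. Nail matrix and hard keratin genes had positive level differences in 17 of 18, with a median of 1.32, 0 called and 11 unadjusted, and 5 of them fell after proximal amputation. Keratin-associated protein genes were positive in 26 of 27, with a median of 1.13, 0 called and 9 unadjusted. Members of these families resemble each other in sequence, and the counting may have divided their reads. All 6 erythroid genes were positive, with a median of 3.57 and 0 called (0 unadjusted). Their summed level per 1e6 of the table total ranged from 28.1 to 822 in the distal 14 day, 77.6 to 825 in the distal 21 day, 36.2 to 502 in the proximal 14 day and 7.48 to 140 in the proximal 21 day libraries. Over all genes the median level difference was -0.05, and 19.4% had an unadjusted p under 0.05. Of all genes, 21.5% fell after distal and 16.3% after proximal amputation.

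**Figure D5:**
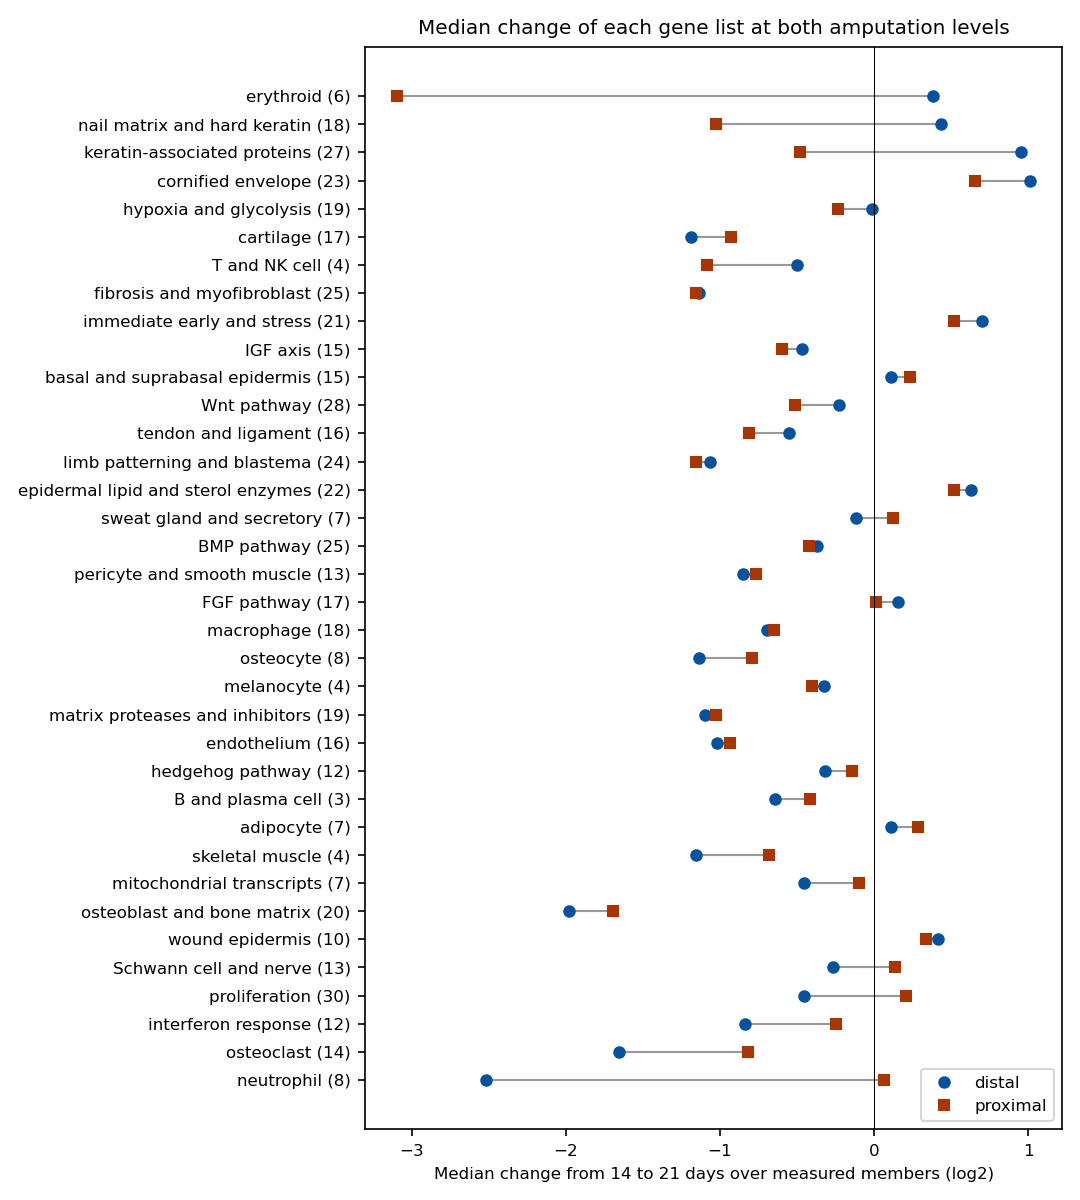
Median change from 14 to 21 days in log2 units (horizontal axis) of each of 36 gene lists, with the number of measured members in brackets, after distal (circles) and proximal (squares) amputation. Osteoblast, fibrosis and endothelial lists lie to the left of 0 at both levels, while proliferation, neutrophil, erythroid, nail and keratin-associated lists have medians on opposite sides of 0.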

How the data were processed

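Per the labels, total RNA of digit tips was depleted of ribosomal RNA and sequenced. Per the submitters' processing notes, reads were handled with cutadapt, with STAR (2.5.4b) and with featureCounts (1.6.3, from Subread), on mm10. The sources used here do not give the strand setting of the counting, which leaves overlapping and antisense genes uncertain. The authors deposited whole numbers for 15055 genes, per the labels from RNA sequencing, and here they are taken as a score and not as raw counts. Over 9650 genes with high values, the least variable combination of libraries spread by only 0.00675 (natural log), where Poisson sampling would give 0.0453, or 6.71 times as much. Raw counts cannot vary so little, so a normalisation and rounding step, which no label or header mentions, is likely. Depth is unknown, no counting interval was computed, and p-values are likely too small. Table totals ran from 15.3 to 19.4 (in 1e6) and upper quartiles from 905.5 to 930.5.

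From these values log2(value + 1) was computed, and limma (3.58.1, in R 4.3.3; lmFit and eBayes with a trend) fitted 6 group means over all 24 libraries, including the 8 of day 12, with 18 residual and 3.91 prior degrees of freedom. No filter was applied. All folds carry the added 1, which makes changes of low genes look smaller. Errors are moderated standard errors, and intervals are 95%. A gene was called at a Benjamini-Hochberg adjusted p under 0.05, adjusted over the whole table. The fit was tested on simulated data. Comparisons of the 2 levels share no libraries, while each level difference contains both. Coordinates and promoters are RefSeq's for GRCm38.p6, the build called mm10, matched by symbol for 13634 genes. Promoters of chromosome 18 were left out, and 1 called gene of the epidermal lipid list is not reported here.

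The 51 named genes are the 6 largest level differences in each direction among called genes with a mean value of at least 50; the 4 largest of each class changed in 1 level only whose values did not overlap in that level; the 6 largest of each opposite class without overlap in either level; a panel (Bglap, Dmp1, Acp5, Acan, Col10a1, Tnmd, Postn, Msx1, Msx2, En1, Lef1, Bmp4, Mki67, Krt14, Lyz2, S100a8); and up to 4 called members of lists with at least 3. Other list members are named where a passage goes through a list. The members, the 36 lists and the rule were chosen with earlier results of these data known. The alternatives were median-ratio factors, table totals, pseudocounts of 0.5 and 8, a minimum mean of 50, only the 16 libraries, the low-spread direction as a covariate, array weights, a replicate block, and the omission of each library in turn. The count of called proliferation genes was added after the data were seen.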

Additional observations from a re-analysis of the deposited data

Results flagged for a closer look

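The count of 286 genes with a called level difference is itself a difference between the amputation levels under the same contrast of days, tested by the interaction of level and day.

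In 13 groups of 4 libraries, 1 library of a described gene stood further from the others than Dixon's 95% critical value allows. Chance alone gives this for about 1 in 20 groups. The 4 groups of each of the 51 named genes were screened, so 13 is near the chance share, and nothing is read from it. Klk6 stood at 481 in distal 14 day replicate 2 with the next value at 72, and Slpi at 55 in distal 21 day replicate 2 (next 32). Acan stood at 2302 in distal 21 day replicate 1 (next 996) and Creg2 at 401 in the same library (next 256). P2ry2 stood at 673 (next 1092) and Kif20a at 404 (next 457) in distal 14 day replicate 3. Arhgdib stood at 157 in distal 21 day replicate 2 (next 123) and Msx1 at 646 in distal 21 day replicate 4 (next 522). After proximal amputation, Commd6 stood at 490 in 14 day replicate 3 (next 373), Spink7 at 141 in 21 day replicate 1 (next 61), Krt14 at 156060 in 21 day replicate 3 (next 117230), and Efhd1 at 155 (next 106) and Ccnb2 at 332 (next 364) in 21 day replicate 2.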

How the results depend on the processing

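Replicate numbers did not pair the libraries: of 24 pairs with the same number in different groups, 7 had correlated deviations above 0.1 (range -0.19 to 0.23). With the replicate block, 270 genes were called in place of 286, and among described genes the calls of Gpr85, Slc16a14, H19, Igfbp5, Foxm1 and Nuf2 were lost. Scaling to the table total gave 741 genes, 91 more positive and 650 more negative, with 360 changed distally only, 242 proximally only and 23 of the proliferation genes, and it moved the median level difference of all genes from -0.05 to -0.20. Median-ratio factors moved it to -0.00066 and gave 266 more positive and 103 more negative genes. With only the 16 libraries the count was 164 (93 more positive, 71 more negative, 76 distal only, 42 proximal only), and with the low-spread direction as a covariate 181 (80 more negative, 81 distal only, 50 proximal only). Leaving out 1 library gave 105 to 460 genes, 62 to 224 more positive and 43 to 236 more negative, with 45 to 219 distal only, 27 to 152 proximal only and 23 to 62 opposite; distal time changes numbered 4449 to 5353, proximal ones 3401 to 4339, and called proliferation genes 3 to 8. The cause of these shifts was not tested. Of the 286 genes, 62 were called in all 16 fits without 1 library and under all 9 alternatives.

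Among the genes named by rule, estimates changed sign only for genes that were not called: Bmp4 with median-ratio factors (0.0035), Lyz2 with table totals (-0.026), and, without 1 library, Dmp1 (-0.61 to 0.27), Tnmd (-0.088 to 0.48), Bmp4 (-0.11 to 0.051), Krt14 (-0.19 to 0.073) and Lyz2 (-0.020 to 0.27). Calls were lost for 12 of them with only the 16 libraries, 11 with the covariate, 4 with the block, 2 with array weights, 2 with table totals and 1 with the pseudocount of 8. With an unknown depth, counting error could not be separated from other spread.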

Other observations

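Subunits of eIF2B, the complex that recharges the translation initiation factor eIF2, were picked out after their values were seen. All 5 had positive level differences: 0.86 ± 0.19 for Eif2b5 (adjusted p = 0.0272), 0.68 ± 0.13 for Eif2b4 (0.0152), 0.60 ± 0.14 for Eif2b3 (0.031), 0.55 ± 0.17 for Eif2b2 (0.0872) and 0.51 ± 0.15 for Eif2b1 (0.0807). Eif2b4 stood at 841, 830, 693 and 775, then 1137, 1141, 924 and 1186 after distal amputation, and at 795, 770, 831 and 1008, then 762, 763, 732 and 700 after proximal amputation. Neither the distal nor the proximal groups overlapped, and the proximal change of -0.20 ± 0.10 was not called (adjusted p = 0.128). The level difference of Eif2b4 kept its call in 16 of 16 fits without 1 library, that of Eif2b5 in 12 and that of Eif2b3 in 7.

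Of the distal-less homeobox genes, Dlx1 was called beside Dlx6, also picked out after its values were seen. It stood at 264 to 352, then 332 to 510 after distal amputation, and at 324 to 368, then 178 to 274 after proximal amputation, a level difference of 0.89 ± 0.19 (adjusted p = 0.0201). The call ended without distal 14 day replicate 2 (adjusted p = 0.0502). The paired neighbour genes Dlx2 (0.27 ± 0.33) and Dlx5 (-0.14 ± 0.18) were not called. Nor were Dlx3 (0.50 ± 0.26, adjusted p = 0.293) and Dlx4 (0.53 ± 0.27, adjusted p = 0.278). Both of the latter rose after distal amputation (adjusted p = 0.024 and 0.012) and were not called after proximal amputation.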
